A study of Mus musculus with 11 samples.

Results

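Genes of the interferon system were followed in mouse kidney fibroblast preparations through the first week of ureteral obstruction. They were picked by symbol from the gene table: symbols that begin with Ifit, Oas, Gbp, Irgm, Isg15 or Isg20, symbols that begin with Ifi, Irf or Stat and a digit, and single genes such as Mx1, Bst2, Usp18, Zbp1, Ddx58, Ifnar1 and Ifngr1. No measured value entered the rule. It found 83 of 13985 genes, or 0.593%, and 81 of them reached the mean of 0.5 FPKM over all libraries that the tests required. The set comprises 4 interferon receptor chains, 7 STATs, 9 interferon regulatory factors (IRFs), 7 Oas genes, 10 Gbp genes, 5 immunity-related GTPases, 9 genes of the Ifi200 cluster, 6 Ifitm genes, 6 Ifit genes, 4 other Ifi genes, 13 other effectors and 3 IRF2-binding protein genes. Irf2bp1, Irf2bp2, Irf2bpl and Isg20l2 are in it by their spelling alone. Mx2 and Oas1b stand in the transcript table only and are not among the 83.

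The cells came from kidneys of C57BL/6 mice by tissue digestion and enrichment in DMEM with serum, and the labels call them primary kidney fibroblasts. The model was unilateral ureteral obstruction, in which the ureter of a kidney is surgically closed and fibrosis follows. Of 11 libraries, 4 were made at day 7 of obstruction, 4 at day 3 and 3 from control kidneys. No transgene, drug or cell sort is named, and no age is stated for the mice. The labels do not tell whether replicates came from different mice, and all p-values therefore describe only how these samples scatter, which may be technical. Values are FPKM, which scales fragments to transcript length and library size, and are given as mean ± SD with n = 4 at day 7, n = 4 at day 3 and n = 3 for control. Changes are log2 fold changes on the log2(FPKM + 1) scale, which understates the change of low genes, each ± its standard error. A gene was called at an adjusted p under 0.05 in limma.

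The preparations were mixed. All 12 fibroblast markers were higher on both days, with a summed level of 1530 to 3820 FPKM at day 7, 516 to 1050 at day 3 and 67.3 to 86 in control. All 12 proximal tubule markers were lower on both days, with sums of 587 to 770 FPKM at day 7, 1110 to 2100 at day 3 and 13200 to 16100 in control. The 21 macrophage marker identifiers summed to 6460 to 7400 FPKM at day 7, 5310 to 8760 at day 3 and 815 to 1220 in control, and 20 were higher on both days, Mertk being the exception. The mitochondrial genome held 4.27 to 7.94% of the summed FPKM at day 7, 6.06 to 7.29% at day 3 and 25.4 to 35.9% in control. Replicate 1 of day 3 had 261 FPKM of the liver gene Alb, against 3.04 or less in every other library. The depth per library is unknown, since FPKM values hold no counts. Libraries of a group correlated at 0.965 to 0.992 across genes, and 0 columns were identical.

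Interferons are secreted proteins that bind paired receptor chains at the cell surface. Type I interferons act through IFNAR1 and IFNAR2, and interferon gamma acts through IFNGR1 and IFNGR2. The receptors engage Janus kinases that phosphorylate STAT proteins. A complex that holds STAT2 and IRF9 binds the interferon-stimulated response element (ISRE), whereas STAT pairs bind the gamma-activated site (GAS). The genes so induced include enzymes that sense or degrade viral RNA, GTPases that act on pathogens and their vacuoles, DNA sensors, and regulators of the pathway itself such as USP18, IRF7 and IRF9. Macrophages, endothelium, fibroblasts and epithelium can all express them.

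The ISRE letters were more common in the promoters of these genes than in promoters at large. A window of 300 bases, running from 250 bases before to 50 after the start site in RefSeq on GRCm38.p6, was at hand for 67 of the 83 members. The ISRE was searched as GAAA, any 2 bases and GAAA again, or TTTC, any 2 bases and TTTC again, which covers both strands, and matches may overlap. It occurred in 33 of these 67 members (49.3%), against 1079 of all 27025 symbols with a window (3.99%). Counted by window, since 13 members have more than 1, it stood in 34 of 82 windows (41.5%), against 1131 of 32851 (3.44%). Among members called higher at day 7, 27 of 56 held it (48.2%), as did 2 of 3 called lower and 2 of 6 that did not pass (33.3%). At day 3 it stood in 27 of 57 members called higher (47.4%), in 0 of 1 called lower and in 4 of 7 that did not pass (57.1%). It was found in 5 of 5 Gbp, 5 of 6 Ifit, 6 of 8 Ifi200, 3 of 4 immunity-related GTPase and 4 of 6 Oas genes, but in 1 of 8 IRFs, 2 of 6 STATs and 0 of 4 receptors. The GAS, searched as TTCNNNGAA, which reads the same on both strands, occurred in 18 of 67 members (26.9%), against 2582 of 27025 symbols (9.55%). Both motifs stood in 8 members. A match shows only that the letters are there.

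The 5 promoters printed here set a member with a large rise (Oas1a), an abundant one that rose (Isg15) and one with a small rise (Ifit1) beside the Ifit pair that fell at day 7 (Ifit3 and Ifit3b). Capitals mark the ISRE, and each sequence runs 5′ to 3′ on the strand of its gene. The windows lie at chr5:120907476-120907775 on the minus strand for Oas1a and chr4:156200769-156201068 on the minus strand for Isg15. On the plus strand they lie at chr19:34640639-34640938 for Ifit1, chr19:34583279-34583578 for Ifit3 and chr19:34607707-34608006 for Ifit3b.
Oas1a: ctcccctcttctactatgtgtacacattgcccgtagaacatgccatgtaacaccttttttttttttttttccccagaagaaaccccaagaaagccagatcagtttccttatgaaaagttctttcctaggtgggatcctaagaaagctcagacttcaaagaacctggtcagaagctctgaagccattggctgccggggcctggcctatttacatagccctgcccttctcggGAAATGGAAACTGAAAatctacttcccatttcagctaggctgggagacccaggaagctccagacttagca
Isg15: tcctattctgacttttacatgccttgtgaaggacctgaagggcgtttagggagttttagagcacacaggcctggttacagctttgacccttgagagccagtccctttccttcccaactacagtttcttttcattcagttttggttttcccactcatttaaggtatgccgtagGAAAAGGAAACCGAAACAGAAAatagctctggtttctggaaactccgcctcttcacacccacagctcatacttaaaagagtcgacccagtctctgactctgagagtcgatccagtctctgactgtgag
Ifit1: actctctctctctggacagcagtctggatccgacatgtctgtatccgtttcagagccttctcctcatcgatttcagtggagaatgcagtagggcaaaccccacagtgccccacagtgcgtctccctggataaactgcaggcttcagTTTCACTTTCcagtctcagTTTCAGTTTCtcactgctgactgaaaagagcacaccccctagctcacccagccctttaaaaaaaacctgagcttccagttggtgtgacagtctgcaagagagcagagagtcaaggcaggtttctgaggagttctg
Ifit3: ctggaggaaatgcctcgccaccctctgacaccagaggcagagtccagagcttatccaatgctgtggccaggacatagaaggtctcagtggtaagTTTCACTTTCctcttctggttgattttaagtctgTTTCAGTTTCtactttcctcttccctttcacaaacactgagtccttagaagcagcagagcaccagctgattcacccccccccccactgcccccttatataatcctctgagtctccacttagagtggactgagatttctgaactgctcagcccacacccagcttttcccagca
Ifit3b: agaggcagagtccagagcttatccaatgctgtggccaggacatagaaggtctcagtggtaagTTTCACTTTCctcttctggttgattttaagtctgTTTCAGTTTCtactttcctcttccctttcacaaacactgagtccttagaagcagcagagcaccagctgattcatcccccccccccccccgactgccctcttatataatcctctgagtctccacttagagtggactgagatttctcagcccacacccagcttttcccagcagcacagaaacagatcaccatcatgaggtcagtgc
Counted from 1 at the 5′ end of the window, the motif begins at bases 231 and 237 of Oas1a, at 173, 179 and 185 of Isg15, at 147 and 166 of Ifit1, at 95 and 129 of Ifit3 and at 63 and 97 of Ifit3b. The windows of Ifit3 and Ifit3b share an identical run of 169 bases that starts at base 33 of the Ifit3 window and base 1 of the Ifit3b window. Both motifs of each gene lie inside it.

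Most interferon-related genes were higher on both days of obstruction. At day 7, 69 of the 81 tested members were higher than in control, 4 were lower (Irf3, Ifit3 and Ifit3b among them) and 8 did not pass, where 69.8% of all 13428 genes were called (46.3% higher, 23.5% lower). At day 3, 70 were higher, 1 was lower (Irf3) and 10 did not pass, where 65.3% of all genes were called (44.4% higher, 21% lower). The filter at 0.5 FPKM averages over more obstructed than control libraries, so it favours low genes that rise. Gbp8, Gbp10, Ifi202b, Ifi213, Ifitm10 and Oas3 averaged below 0.5 FPKM in control, and all but Gbp10 were called higher on both days. It left out Ifit1bl2 (0.293 FPKM at day 7, 0.585 in control) and Gbp2b (0.724 FPKM at day 7, 0.121 in control). The median change of the tested members was 1.21 at day 7 and 1.21 at day 3, against 0.28 at day 7 and 0.26 at day 3 over all genes tested. Counted over all 83, the day 7 libraries lay above all control libraries in 66 members and below in 5 (the 4 called lower and Ifit1bl2), and the day 3 libraries above in 67 and below in 1. The share of all genes that lay apart in this way was not counted, so these counts have no background beside them. In all, 62 members were higher on both days with no call between the days, and 6 passed no test (Gbp10, Ifit1bl1, Ifit2, Irf2bp1, Ifi27 and Stat4). The share of all genes with either pattern was not counted, so how far these counts are particular to the members is not known. The 83 members summed to 1800 to 2390 FPKM at day 7, 1940 to 2490 at day 3 and 590 to 840 in control. As a share of the nuclear-encoded FPKM this was 0.723 to 0.931% at day 7, 0.766 to 0.986% at day 3 and 0.252 to 0.303% in control.

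Marker sums of several cell types moved with the same groups, as given above for macrophages, fibroblasts and tubule. The 8 listed dendritic cell markers summed to 76.9 to 96.4 FPKM at day 7, 65.2 to 78.7 at day 3 and 27.1 to 42 in control. The 11 listed lymphocyte markers summed to 12.6 to 17.7 FPKM at day 7, 10.5 to 16.7 at day 3 and 15 to 24 in control, with Cd3d listed at 0 in 2 obstructed libraries. Single lymphocyte markers went both ways: of 8 tested, 2 were higher and 4 lower at day 7, and 3 were higher and 5 lower at day 3. Gzma averaged 0.233 FPKM at day 7, 0.0548 at day 3 and 4.78 in control, and Cd4 4.47 at day 7, 4.03 at day 3 and 0.713 in control. The 6 neutrophil markers summed to 40.8 to 87.2 FPKM at day 7, 16.8 to 164 at day 3 and 34.2 to 42.4 in control, and the 10 endothelial markers to 122 to 206 FPKM at day 7, 181 to 202 at day 3 and 118 to 159 in control. Of the neutrophil markers, 1 was higher and 0 lower at day 7, and 1 was higher and 1 lower at day 3. Among the endothelial markers, 3 were higher and 1 lower at day 7, and 4 were higher and 2 lower at day 3. The part of these cells in the changes of the interferon genes was not tested. In bulk samples, fewer cells of a type and less RNA per cell cannot be told apart.

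The counts depended on how the libraries were scaled. Centring each library on its median moved the median change of all genes by -0.30 at day 7 and -0.33 at day 3. It gave 4251 genes higher and 4654 lower at day 7 and 3743 higher and 4701 lower at day 3, against 6217 and 3162 at day 7 and 5957 and 2816 at day 3 as deposited. Under that centring 57 members were higher and 4 lower at day 7, and 58 were higher and 3 lower at day 3, with member medians of 0.91 and 0.87. Rescaling to TPM moved the median of all genes by 0.49 at day 7 and 0.44 at day 3, with 8559 genes higher and 1967 lower at day 7 and 8246 higher and 1700 lower at day 3. It gave 76 members higher and 1 lower at day 7 and 77 higher and 0 lower at day 3. With the mitochondrial genome left out of the TPM, the shifts were 0.08 at day 7 and 0.05 at day 3, and 70 members were higher and 4 lower at day 7, and 69 higher and 1 lower at day 3.

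**Figure D1:**
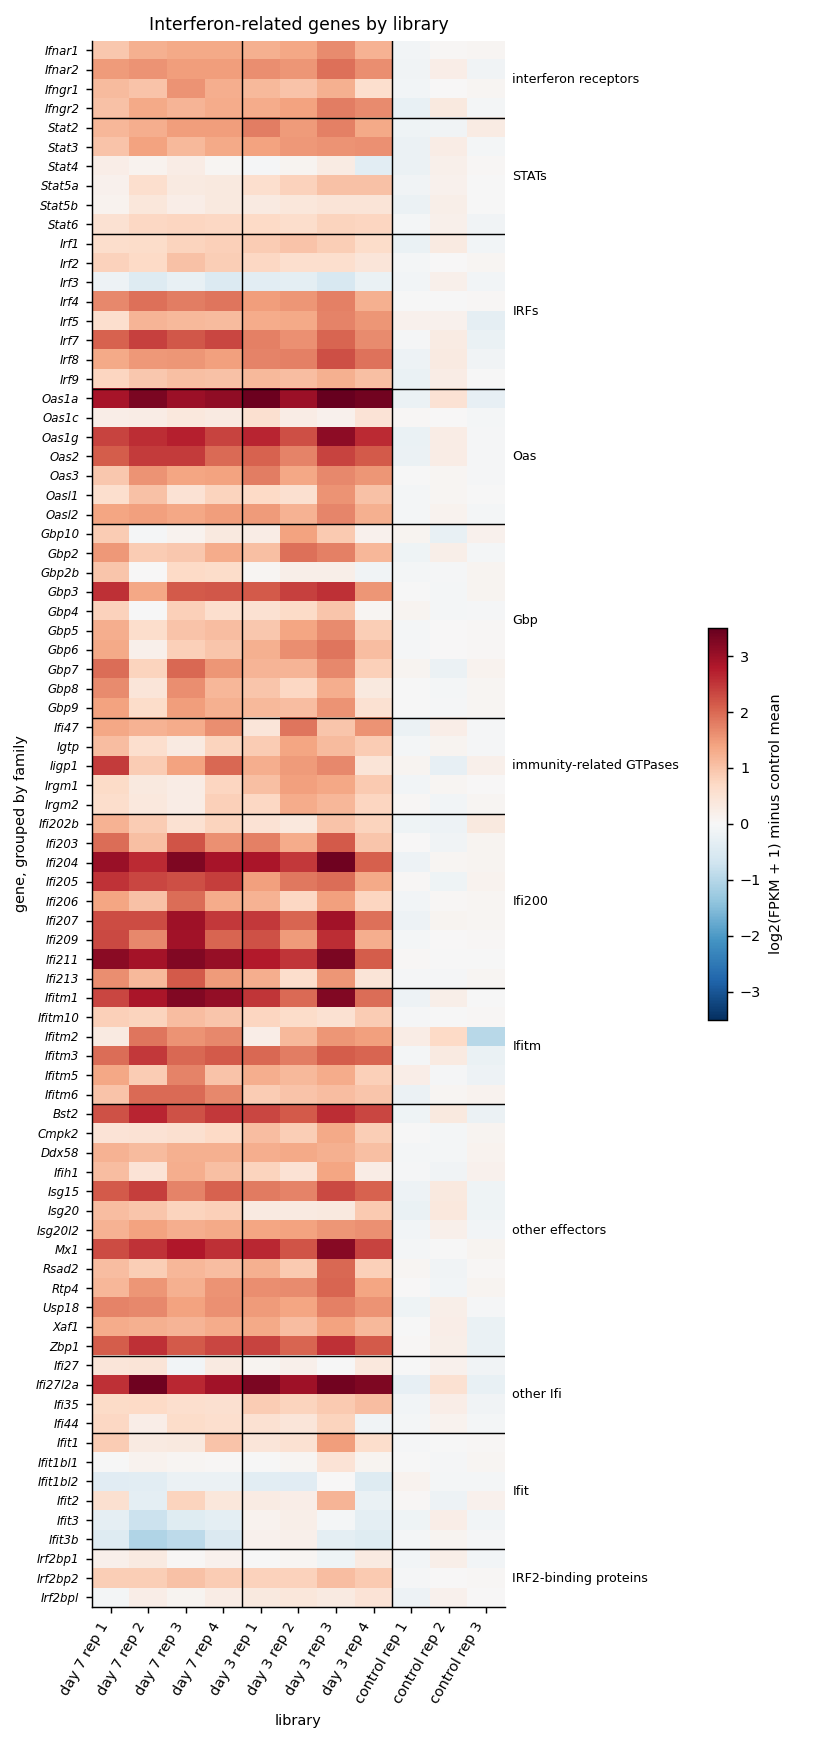
Each row is a gene of the set, grouped by family, and each column a library (day 7, day 3, control). The colour is log2(FPKM + 1) minus the mean of the 3 control libraries. Oas1a, Ifi27l2a, Ifi204 and Ifi211 are among the darkest rows on both days, and Irf3, Ifit3 and Ifit3b are below control in all 4 day 7 libraries.

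**Figure D2:**
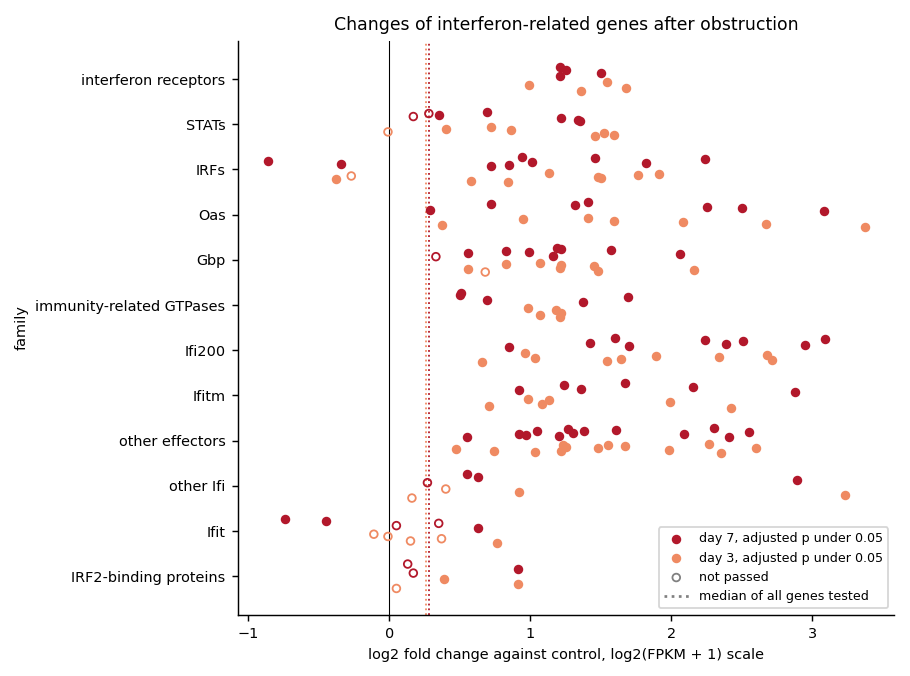
Log2 fold change against control of the 81 tested members by family, on the log2(FPKM + 1) scale, at day 7 and at day 3. Filled points have an adjusted p under 0.05 in limma, and the reference lines are the medians of all genes tested (0.28 at day 7 and 0.26 at day 3). All 4 receptor, 7 Oas, 9 Ifi200 and 6 Ifitm genes were called higher on both days, while the Ifit genes lie on both sides of 0.

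No interferon ligand listed was called higher. Of 11 symbols of interferons and their lambda receptor looked for, 3 were listed. Ifnb1, which encodes interferon beta, had 0.959, 0.575, 1.48 and 1 FPKM at day 7, 2.03, 1.91, 2.52 and 1.9 at day 3, and 2.19, 2.88 and 3.08 in control. Every day 7 library lay below every day 3 and control library. Its change was -0.90 ± 0.15, adjusted p = 0.000171, between day 7 and control and -0.64 ± 0.14, adjusted p = 0.00897, between day 7 and day 3, and that between day 3 and control did not pass (-0.26 ± 0.15, adjusted p = 0.142). Ifng, interferon gamma, had 1.15, 0.232, 0.758 and 0.679 FPKM at day 7, 0.157, 0.523, 0.938 and 0.269 at day 3, and 1.64, 1 and 1.33 in control. It was lower at day 3 (-0.68 ± 0.20, adjusted p = 0.0104), where the groups do not overlap, and did not pass at day 7 (-0.47 ± 0.20, adjusted p = 0.0558). Ifnlr1, a chain of the interferon lambda receptor, was higher at day 3 (0.39 ± 0.10, adjusted p = 0.0032) and did not pass at day 7. All of these levels are low.

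All 4 receptor chains were higher on both days, without overlap with control. Ifnar1 had 14.8, 18.7, 19.7 and 19.7 FPKM at day 7, 18.7, 19.9, 24.9 and 18 at day 3, and 6.66, 7.49 and 7.62 in control, a change of 1.21 ± 0.14 at day 7 and 1.36 ± 0.14 at day 3. Ifnar2 had 32.9, 35.2, 32.3 and 32.4 FPKM at day 7, 36.2, 34.5, 44.7 and 36.1 at day 3, and 10.1, 13.2 and 10.2 in control, a change of 1.50 ± 0.12 at day 7 and 1.68 ± 0.12 at day 3. The obstructed libraries of both type I chains lay well above control. Ifnar2 overlaps Gm21970 by 13869 bases. Ifngr1, the ligand-binding chain of the interferon gamma receptor, averaged 34.2 ± 6.29 FPKM at day 7, 28.5 ± 5.43 at day 3 and 13.7 ± 0.811 in control, a change of 1.25 ± 0.17 at day 7 and 0.99 ± 0.17 at day 3. Its partner Ifngr2 averaged 27.1 ± 2.63 FPKM at day 7, 34.8 ± 5.52 at day 3 and 11.4 ± 2.75 in control, a change of 1.21 ± 0.16 at day 7 and 1.54 ± 0.16 at day 3. The largest adjusted p among these 8 tests was 0.000233, and no receptor was called between the days.

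Of the 7 STATs, 5 were higher at day 7 and 6 at day 3, and none was lower. Stat2, which joins IRF9 at the ISRE, had 6.7, 7.27, 8.5 and 8.56 FPKM at day 7, 10.9, 8.65, 10.8 and 7.62 at day 3, and 2.11, 2.15 and 3.19 in control, a change of 1.34 ± 0.15 at day 7 and 1.59 ± 0.15 at day 3. Stat3, which carries signals of the interleukin-6 family, was the most abundant STAT and had 34.5, 45.8, 37.7 and 43.3 FPKM at day 7, 45.9, 49.3, 51.1 and 52.6 at day 3, and 14.3, 20.2 and 15.9 in control, a change of 1.22 ± 0.14 at day 7 and 1.52 ± 0.14 at day 3. All obstructed libraries lay above control in both genes. Stat6, which acts downstream of interleukin-4 and interleukin-13, rose less, by 0.69 ± 0.11 at day 7 and 0.72 ± 0.11 at day 3.

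Stat5a passed the test on both days and Stat5b at day 3. Stat5a, a mediator of cytokine and growth hormone signals, averaged 5.44 ± 0.825 FPKM at day 7, 8.18 ± 1.31 at day 3 and 4.04 ± 0.497 in control. It was higher at day 3 (0.86 ± 0.14, adjusted p = 2e-04), and at day 7 by 0.35 ± 0.14 with groups that overlap (adjusted p = 0.0448). The day 7 call was lost under median centring (0.05) and quantile normalization (0.05), and without control replicate 1 (0.28), control replicate 3 (0.34), day 3 replicate 2 (0.35), day 7 replicate 2 (0.27), day 7 replicate 3 (0.36) or day 7 replicate 4 (0.35). Stat5b was higher at day 3 (0.40 ± 0.12, adjusted p = 0.0105), a call lost under median centring (0.07) and quantile normalization (0.09) and without control replicate 1 (0.30), and it did not pass at day 7 (0.28 ± 0.12, adjusted p = 0.0546). Stat4, which carries interleukin-12 signals in T and NK cells, was low throughout, at 1.22 ± 0.14 FPKM at day 7, 0.981 ± 0.358 at day 3 and 0.98 ± 0.274 in control, and passed no test.

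The IRFs split by member: 7 of 9 were higher on both days and Irf3 was lower on both. Irf7, the amplifier of type I interferon production and itself interferon-induced, had 15.3, 19.8, 16.8 and 18.9 FPKM at day 7, 12.4, 10.9, 15 and 11.4 at day 3, and 2.82, 3.78 and 2.32 in control. Its change was 2.24 ± 0.15 at day 7 and 1.76 ± 0.15 at day 3, the largest of the family at day 7, and all day 7 libraries lay above all day 3 libraries. Irf8, a lineage factor of monocytes, macrophages and dendritic cells, had 10.5, 12.2, 12.5 and 11.5 FPKM at day 7, 14.4, 14.6, 21 and 16 at day 3, and 3.04, 4.7 and 3.19 in control, a change of 1.46 ± 0.16 at day 7 and 1.91 ± 0.16 at day 3. Its day 3 libraries lay above its day 7 libraries, but that difference did not pass (-0.45 ± 0.14, adjusted p = 0.0529). Irf4, known from lymphocytes, dendritic cells and alternatively activated macrophages, averaged 7.63 ± 0.644 FPKM at day 7, 6 ± 1.02 at day 3 and 1.45 ± 0.0443 in control, a change of 1.82 ± 0.12 at day 7 and 1.50 ± 0.12 at day 3. Irf5, a factor of inflammatory macrophages, averaged 18.4 ± 3.5 FPKM at day 7, 25.8 ± 4 at day 3 and 8.64 ± 1.69 in control, a change of 1.01 ± 0.18 at day 7 and 1.48 ± 0.18 at day 3. The macrophage marker sums given above were higher than control on both days, as were Irf4, Irf5 and Irf8. Between the days the sums averaged 6850 ± 398 FPKM at day 7 and 6650 ± 1480 at day 3. The means of Irf5 and Irf8 were lower at day 7 than at day 3 and that of Irf4 was higher, none being called. The part of macrophages in these changes was not tested.

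Irf9, the DNA-binding subunit of the ISRE complex, rose by 0.94 ± 0.13 at day 7 and 1.13 ± 0.13 at day 3. Irf1, an activator induced by interferon gamma, rose by 0.72 ± 0.14 at day 7 and 0.84 ± 0.14 at day 3. Irf2, known as an antagonist of IRF1 at shared sites, rose by 0.85 ± 0.11 at day 7 and 0.58 ± 0.11 at day 3, a day 3 call lost under median centring (0.25). Of the IRF2-binding protein genes, Irf2bp2 was higher on both days (0.91 ± 0.10 at day 7 and 0.91 ± 0.10 at day 3), Irf2bpl at day 3 (0.39 ± 0.12) and Irf2bp1 on neither. The Irf2bpl call was lost under both centring and quantile normalization and without control replicate 1, with a range of 0.06 to 0.82 over all alternatives.

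Irf3, the latent factor that induces interferon beta after nucleic acid sensing, had 8.32, 6.65, 7.86 and 6.61 FPKM at day 7, 7.18, 7.35, 6.09 and 7.92 at day 3, and 8.87, 11 and 8.82 in control. All obstructed libraries lay below all control libraries, with changes of -0.34 ± 0.13 at day 7 (adjusted p = 0.0294) and -0.38 ± 0.13 at day 3 (adjusted p = 0.0191), but rescaled to TPM the changes were 0.10 at day 7 and 0.00 at day 3. The day 7 call was also lost without control replicate 2 (-0.24), day 7 replicate 2 (-0.30) or day 7 replicate 4 (-0.30), and the day 3 call without control replicate 2 (-0.28). Irf3 overlaps Bcl2l12 by 1065 bases.

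**Figure D3:**
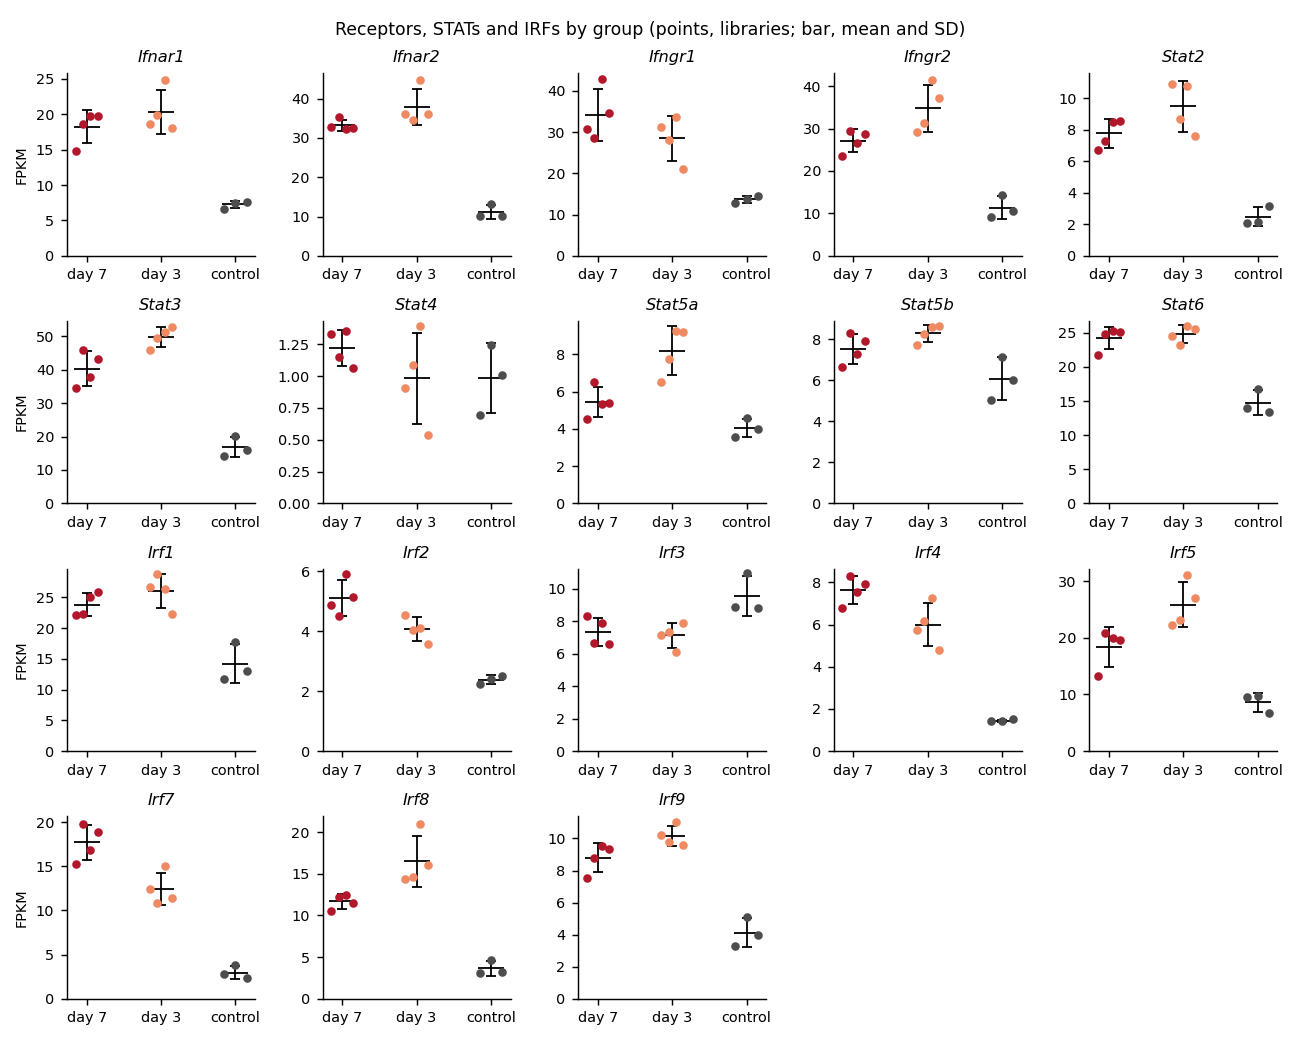
FPKM of receptor, STAT and IRF genes, with a point per library and bars for the mean and SD (n = 4 at day 7, n = 4 at day 3, n = 3 control), each panel on its own axis from 0. Both obstructed groups sit above control without overlap in every panel but those of Irf3, Stat4, Stat5a and Stat5b. Irf7 at day 7 sits between 15.3 and 19.8 FPKM, against 2.32 to 3.78 in control.

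The Oas genes held the largest rise at day 3. Oas1a, an oligoadenylate synthetase that senses double-stranded RNA and activates RNase L, had 26.3, 35.7, 28.9 and 31.1 FPKM at day 7, 39.3, 28.9, 45.4 and 37.5 at day 3, and 2.21, 4.23 and 2.06 in control. Its change of 3.08 ± 0.20 at day 7 and 3.37 ± 0.20 at day 3 was the largest of all members on that day, and control was far below every obstructed library. All 7 Oas genes were higher on both days and none was called between them. Oas1g rose by 2.50 ± 0.19 at day 7 and 2.67 ± 0.19 at day 3, and Oas2 by 2.25 ± 0.17 at day 7 and 2.08 ± 0.17 at day 3. Oas1c rose least, by 0.29 ± 0.11 at day 7 and 0.37 ± 0.11 at day 3, and its day 7 call held in 13 of 21 alternatives (-0.04 to 0.80), being lost under centring, quantile normalization and the replicate block and without control replicate 1, control replicate 2, control replicate 3, day 7 replicate 3 or day 7 replicate 4. Its day 3 call held in 19 of 21 alternatives (0.03 to 0.85) and was lost under centring and quantile normalization, as was the day 7 call of Oasl1 (0.42 to 1.24). Oas1a shares 47.6% of its 75-base windows with other genes, mainly Oas1g, and Oas1g 44.6%, mainly with Oas1a, so their single values are uncertain. Summed over the 7 genes, the level was 68.8 ± 7.71 FPKM at day 7, 80.2 ± 17.1 at day 3 and 14.3 ± 2.44 in control.

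All 13 other effectors were higher on both days. Mx1, a gene of the dynamin-like GTPase family, had 6.43, 7.8, 9.65 and 7.86 FPKM at day 7, 8.4, 6.03, 12.9 and 6.82 at day 3, and 0.445, 0.495 and 0.621 in control. Its change was 2.55 ± 0.20 at day 7 and 2.60 ± 0.20 at day 3. Bst2, or tetherin, which holds budding virions at the membrane, had 103, 140, 103 and 122 FPKM at day 7, 111, 97.6, 131 and 110 at day 3, and 19.1, 26.9 and 18.3 in control, a change of 2.41 ± 0.16 at day 7 and 2.35 ± 0.16 at day 3. Isg15, the ubiquitin-like modifier whose promoter is printed above, had 77.5, 94.1, 58.7 and 74 FPKM at day 7, 62.3, 58.5, 86.6 and 73.8 at day 3, and 14.8, 21.5 and 14.9 in control, a change of 2.09 ± 0.19 at day 7 and 1.98 ± 0.19 at day 3. No control library reached any obstructed library in these 3 genes. Zbp1, a sensor of Z-form nucleic acid, rose by 2.30 ± 0.16 at day 7 and 2.27 ± 0.16 at day 3. Usp18, which removes ISG15 and dampens IFNAR2 signalling, rose by 1.61 ± 0.13 at day 7 and 1.55 ± 0.13 at day 3. The RNA sensor Ddx58 (RIG-I) rose by 1.20 ± 0.10 at day 7 and 1.22 ± 0.10 at day 3. Ifih1 (MDA5), another RNA sensor, rose by 0.97 ± 0.24 at day 7 and 0.74 ± 0.24 at day 3, a day 3 call lost under centring and quantile normalization and without control replicate 1 or control replicate 2 (range over alternatives 0.40 to 1.24). The day 3 call of Isg20 (0.47 ± 0.18, adjusted p = 0.0339), whose groups overlap, held in 15 of 22 alternatives (0.14 to 0.97) and was lost under centring, quantile normalization, the replicate block and a fit of the 2 groups alone, and without control replicate 1, control replicate 3 or day 3 replicate 4. The day 7 call of Cmpk2 (0.55 ± 0.13, adjusted p = 0.00195) was lost under median centring (0.25) and quantile normalization (0.23). Rsad2, or viperin, rose by 1.05 ± 0.23 at day 7 and 1.25 ± 0.23 at day 3 but was also well expressed in control, at 10.2 ± 0.743 FPKM.

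Among the other Ifi genes, Ifi27l2a carried most of the signal. It encodes a small hydrophobic interferon-induced protein and had 168, 301, 179 and 221 FPKM at day 7, 283, 222, 299 and 273 at day 3, and 22.7, 40.6 and 23 in control, a change of 2.89 ± 0.23 at day 7 and 3.23 ± 0.23 at day 3, without overlap. Ifi27, which lies beside it on chromosome 12, was at 34 ± 5.79 FPKM at day 7, 31.2 ± 3.62 at day 3 and 27.8 ± 2.9 in control and passed neither test. Ifi35 was higher on both days (0.63 ± 0.12 at day 7 and 0.92 ± 0.12 at day 3). Ifi44 was higher at day 7 (0.55 ± 0.19, adjusted p = 0.0211), a call lost under centring and quantile normalization and without control replicate 1, control replicate 3 or day 7 replicate 1 (range over alternatives 0.22 to 1.16).

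The Ifi200 cluster, which encodes nucleic acid-binding proteins with HIN domains and spans bases 173468485 to 174031810 of chromosome 1 (GRCm38), was higher on both days in 9 of 9 members. The day 3 calls of Ifi202b (0.33 to 2.03 over alternatives) and Ifi213 (0.63 to 1.74) were lost under median centring, and that of Ifi202b also under quantile normalization. Ifi211 had 38.6, 32.9, 41.5 and 35.8 FPKM at day 7, 29.7, 24.4, 43 and 18.5 at day 3, and 3.57, 3.4 and 3.45 in control. Its change of 3.09 ± 0.21 at day 7 and 2.68 ± 0.21 at day 3 was the largest of the members at day 7, and its control libraries were close together and far below the others. Ifi204 had 31, 23.1, 36.9 and 28.2 FPKM at day 7, 27.5, 20.8, 40.4 and 15.8 at day 3, and 2.5, 3.12 and 3.19 in control, a change of 2.95 ± 0.25 at day 7 and 2.71 ± 0.25 at day 3. Ifi207 was the most abundant of the cluster and averaged 51.9 ± 13 FPKM at day 7, 47.2 ± 16.3 at day 3 and 8.15 ± 0.874 in control, a change of 2.51 ± 0.24 at day 7 and 2.34 ± 0.24 at day 3. Shared sequence is common here: 63.6% of the 75-base windows of Ifi211 and 45.2% of those of Ifi205 occur in other genes, mainly in each other. Ifi203 and Ifi211 also overlap Mndal, by 22085 and 16702 bases, so reads may be split between them.

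The Gbp genes, which encode guanylate-binding proteins that attack pathogen vacuoles, rose by a median of 1.16 at day 7 and 1.21 at day 3. This was less than in the Ifi200 cluster (2.24 at day 7 and 1.64 at day 3) and close to all members (1.21 on both days). Of 9 tested, 8 were higher on each day and Gbp10 on neither. Gbp2, the most abundant, had 43.1, 27.5, 28.6 and 36.9 FPKM at day 7, 31.1, 57.7, 51.4 and 33.4 at day 3, and 12.8, 16.8 and 13.8 in control, a change of 1.16 ± 0.22 at day 7 and 1.48 ± 0.22 at day 3. Gbp3 rose most, by 2.06 ± 0.27 at day 7 and 2.16 ± 0.27 at day 3. Gbp4 was near the threshold, with adjusted p = 0.0402 at day 7 and 0.0415 at day 3, and kept its call in 13 of 21 alternatives at day 7 (0.23 to 1.16) and 11 of 21 alternatives at day 3 (0.23 to 1.12). Its day 7 call was lost without control replicate 1, control replicate 2, control replicate 3, day 7 replicate 1, day 7 replicate 3 or day 7 replicate 4, and its day 3 call without control replicate 1, control replicate 2, control replicate 3, day 3 replicate 1, day 3 replicate 2, day 3 replicate 3 or day 7 replicate 4. Both calls of Gbp4, the day 7 call of Gbp6 and the day 3 call of Gbp8 were lost under median centring and quantile normalization, and that of Gbp8 also without control replicate 2 or day 3 replicate 3. In TPM without the mitochondrial genome, the day 3 call of Gbp4 was lost too. Gbp4 overlaps Gbp8 by 23774 bases and Gbp9 by 23773. Gbp2b, below the tested level, had 1.2, 0.124, 0.806 and 0.763 FPKM at day 7, 0.173, 0.281, 0.283 and 0.0291 at day 3, and 0.067, 0.0895 and 0.206 in control, with overlap.

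All 5 immunity-related GTPases, which guard host membranes or load onto pathogen vacuoles, were higher on both days. Irgm1, a regulator of the family and of autophagy, had 17.2, 13.5, 12.8 and 18.5 FPKM at day 7, 22.7, 29.9, 28.4 and 20.7 at day 3, and 9.86, 11.1 and 10.6 in control. All day 3 libraries lay above all day 7 libraries, and these above all control libraries, with a change of 0.50 ± 0.16 at day 7 and 1.18 ± 0.16 at day 3. The day 7 call of Irgm1 was lost under median centring (0.20) and quantile normalization (0.31). Iigp1 rose by 1.69 ± 0.35 at day 7 and 1.22 ± 0.35 at day 3, and Igtp by 0.69 ± 0.18 at day 7 and 1.07 ± 0.18 at day 3, a day 7 call lost under median centring (adjusted p = 0.0695; range over alternatives 0.39 to 1.20). Irgm2 rose by 0.51 ± 0.17 at day 7 and 0.98 ± 0.17 at day 3, a day 7 call lost under centring and quantile normalization and without control replicate 2 or day 7 replicate 4 (range over alternatives 0.21 to 1.03). Igtp and Irgm2 overlap by 7974 bases on chromosome 11, so reads may be split between them.

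The Ifitm genes, some of whose membrane proteins hinder viral fusion, gave the highest level of the set. Ifitm3 had 358, 520, 373 and 410 FPKM at day 7, 375, 319, 401 and 379 at day 3, and 86.8, 114 and 78.3 in control, a change of 2.15 ± 0.16 at day 7 and 1.99 ± 0.16 at day 3. Ifitm1 had 18.6, 27.4, 36 and 32.2 FPKM at day 7, 21.2, 14.4, 35.8 and 14.3 at day 3, and 2.49, 3.47 and 2.84 in control, a change of 2.88 ± 0.29 at day 7 and 2.42 ± 0.29 at day 3. Neither gene overlapped control. Ifitm2 had 145, 429, 344 and 374 FPKM at day 7, 135, 257, 340 and 314 at day 3, and 140, 187 and 59.1 in control, and its groups overlap. Its day 3 call (1.08 ± 0.45, adjusted p = 0.0497) held in 11 of 22 alternatives (0.60 to 1.52) and was lost with no minimum mean, median centring, no mean-variance trend or a replicate block, and without control replicate 1, control replicate 3, day 3 replicate 2, day 3 replicate 3, day 3 replicate 4, day 7 replicate 3 or day 7 replicate 4. Its day 7 call (1.36 ± 0.45, adjusted p = 0.0164) was lost under median centring and without control replicate 3 (range over alternatives 0.88 to 1.85). Ifitm2 shares 42% of its 75-base windows with other genes, mainly Gm45717, which it overlaps by 1101 bases.

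On the deposited scale, the Ifit family moved otherwise. Its 5 tested members bind viral RNA or are close copies of genes that do. As deposited, Ifit1 alone was higher on each day, and Ifit3 and Ifit3b were lower at day 7. Rescaled to TPM, Ifit2 was called higher in limma at day 7 (adjusted p = 0.0392) and at day 3 (adjusted p = 0.0479). So was Ifit1bl1 under that scaling (adjusted p = 0.0376 at day 7 and 0.0155 at day 3). The genes lie together on chromosome 19 between bases 34550694 and 34650009. Ifit1 had 7.74, 4.81, 4.93 and 8.3 FPKM at day 7, 5.28, 5.85, 12 and 6.22 at day 3, and 3.59, 3.69 and 3.82 in control, all obstructed libraries lying above control, and its change was 0.63 ± 0.24 at day 7 and 0.76 ± 0.24 at day 3 (adjusted p = 0.034 and 0.0148). The day 7 call of Ifit1 held in 14 of 22 alternatives (0.33 to 1.16) and was lost with a replicate block and without control replicate 1, control replicate 2, control replicate 3, day 7 replicate 1 or day 7 replicate 4, and both calls were lost under median centring and quantile normalization. Ifit2 had 11.4, 5.6, 13.5 and 9.96 FPKM at day 7, 9.24, 8.84, 18.1 and 6.18 at day 3, and 7.66, 6.36 and 8.3 in control, with overlap in both comparisons, and its change of 0.35 ± 0.31 at day 7 and 0.37 ± 0.31 at day 3 did not pass (adjusted p = 0.333 and 0.312).

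Ifit3 was already well expressed in control, and had 22.7, 16.5, 21.1 and 22.4 FPKM at day 7, 31.4, 32.8, 27.4 and 22.2 at day 3, and 25.8, 33.5 and 26.8 in control. All day 7 libraries lay below all control libraries, while day 3 overlapped both. The change was -0.45 ± 0.16 at day 7 and -0.01 ± 0.16 at day 3 (adjusted p = 0.0227 and 0.941). Rescaled to TPM it was 0.01 at day 7 and 0.41 at day 3, where it was called higher (adjusted p = 0.0469). The day 7 call of Ifit3 was also lost without control replicate 2 (-0.34) or day 7 replicate 2 (-0.35). Ifit3b had 7.29, 4.46, 5.04 and 7.1 FPKM at day 7, 11.6, 12, 7.94 and 7.53 at day 3, and 9.9, 11.3 and 10.1 in control. It lay below both other groups at day 7 (-0.74 ± 0.19, adjusted p = 0.00395, against control; -0.34 and not passed when rescaled to TPM) and did not pass at day 3 (-0.11 ± 0.19, adjusted p = 0.613; 0.29 rescaled to TPM). The promoters printed above hold the ISRE letters in both of these genes as in Ifit1. In the transcripts, 41.1% of the 75-base windows of Ifit3 and 35.7% of those of Ifit3b are shared, mainly with each other, so reads may be split between them. Summed over the 6 Ifit genes, the level was 44.5 ± 8.09 FPKM at day 7, 57.6 ± 10.3 at day 3 and 51.8 ± 3.97 in control.

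**Figure D4:**
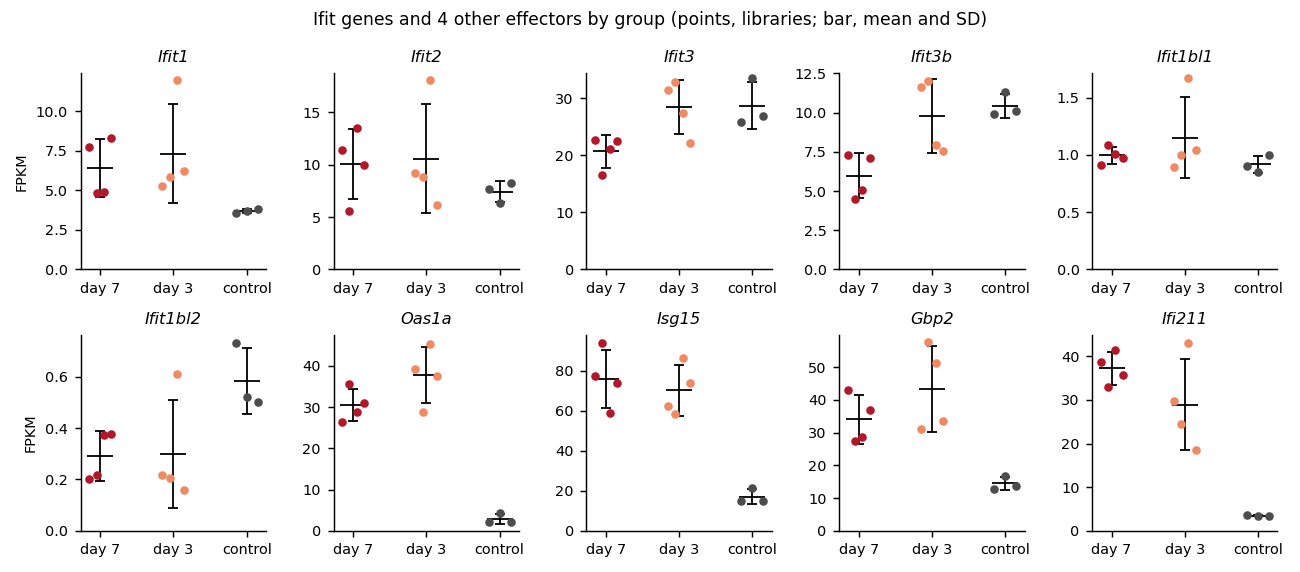
FPKM of the 6 Ifit genes and of 4 other interferon-induced genes, with a point per library and bars for the mean and SD (n = 4 at day 7, n = 4 at day 3, n = 3 control), each panel on its own axis from 0. Ifit3 and Ifit3b are lowest at day 7, at 16.5 to 22.7 and 4.46 to 7.29 FPKM, whereas Oas1a, Isg15, Gbp2 and Ifi211 are lowest in control.

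Between the days, few members differed. At day 7 compared with day 3, 3 members were higher, 5 were lower and 73 did not pass, or 9.88% called, against 15.7% of all genes (7.37% higher, 8.37% lower). The median change was -0.02, against -0.04 over all genes. Ifi205, of the Ifi200 cluster, averaged 9.09 ± 0.801 FPKM at day 7 and 5.11 ± 1.3 at day 3, a change of 0.75 ± 0.15, adjusted p = 0.00492, without overlap. Irf7 was higher by 0.48 ± 0.14, adjusted p = 0.0366, and Ifitm6 by 0.69 ± 0.19, adjusted p = 0.0285, with groups that overlap in Ifitm6. Irgm1 was lower (-0.68 ± 0.15, adjusted p = 0.00843). Ifit3b (-0.62 ± 0.18, adjusted p = 0.0313) and Stat5a (-0.51 ± 0.13, adjusted p = 0.0222) were lower too, with overlap in Stat5a. Cmpk2, a mitochondrial nucleotide kinase gene, averaged 4.57 ± 0.356 FPKM at day 7 and 6.82 ± 1.27 at day 3, a change of -0.48 ± 0.12, adjusted p = 0.0179.

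Some of these calls were lost under alternatives. The count was 5 (1 higher and 4 lower) without day 3 replicate 1, day 3 replicate 2, day 7 replicate 2 or day 7 replicate 3, and 12 (7 higher and 5 lower) without day 3 replicate 3. The calls of Ifi205 and Irgm1 held in all 22 alternatives. That of Irf7 held in 13 of 22 alternatives and was lost with a replicate block (0.48) or a pseudocount of 0.1 (0.51), and without control replicate 1 (0.48), day 3 replicate 1 (0.48), day 3 replicate 2 (0.42), day 3 replicate 4 (0.45), day 7 replicate 2 (0.43), day 7 replicate 3 (0.50) or day 7 replicate 4 (0.45). That of Ifitm6 held in 15 of 22 alternatives and was lost in a fit of the 2 groups alone (0.69) and without day 3 replicate 1 (0.66), day 3 replicate 2 (0.69), day 3 replicate 4 (0.68), day 7 replicate 2 (0.58), day 7 replicate 3 (0.58) or day 7 replicate 4 (0.69). That of Ifit3b held in 16 of 22 alternatives and was lost rescaled to TPM (-0.63), in a fit of the 2 groups alone (-0.62) and without day 3 replicate 1 (-0.54), day 3 replicate 2 (-0.52), day 7 replicate 2 (-0.51) or day 7 replicate 3 (-0.56). That of Stat5a was lost without day 3 replicate 4 (-0.45), day 7 replicate 1 (-0.44) or day 7 replicate 4 (-0.51), and that of Cmpk2 without day 7 replicate 1 (-0.45).

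Which replicate was highest or lowest differed between families. How often each library was highest or lowest over all genes was not counted. Some Gbp and Ifi200 genes overlap or share sequence, as given above, so their counts are not independent. Within day 7, replicate 2 was the lowest library in 10 of 10 Gbp and 7 of 9 Ifi200 genes, with a Gbp sum of 46.5 FPKM against 69.9 to 92.6 in the other day 7 libraries. It was the lowest in 0 of 7 Oas genes and the highest in 3. Replicate 1 of day 7 was the lowest in 6 of 9 IRFs and the highest in 7 of 10 Gbp genes. Within day 3, replicate 3 was the highest in 57 of the 83 members, among them 9 of 9 Ifi200 and 8 of 10 Gbp genes, and replicate 4 was the lowest in 39. Without day 3 replicate 3, 67 members were higher and 1 was lower than control at day 3. Without day 3 replicate 1, the library with Alb, 70 were higher and 1 was lower.

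At the transcript level, some members changed which transcript carried the signal. The transcript table holds 161 transcripts of 81 members, 149 of them tested. Of these 98 were called at day 7 (89 higher, 9 lower) and 94 at day 3 (89 higher, 5 lower), where 45.6% of all tested transcripts were called at day 7 and 41.2% at day 3. For day 7 compared with day 3, 2 were called, Ifi205-201 among them (higher), where 4.26% of all tested transcripts were called. In 29 of the 36 members with more than 1 transcript, the transcript values summed above the gene value in every library, so a share is given of the transcript sum. The 4 genes described were chosen after their values were seen. Ifi47, an immunity-related GTPase gene, has transcripts with the same coding exons but different start sites on chromosome 11. Ifi47-202, which starts at base 49076587, held 94.5% ± 1.48 at day 7, 83.6% ± 12.3 at day 3 and 7.99% ± 6.92 in control, where it was listed at 0 in 1 library, and rose by 3.27 ± 0.38 at day 7 and 2.96 ± 0.38 at day 3. Ifi47-201, which starts at base 49087039, held 1.14% ± 0.498 at day 7, 2.7% ± 2.64 at day 3 and 90.2% ± 6.91 in control, a change of -2.03 ± 0.16 at day 7 and -1.91 ± 0.16 at day 3. The shares of both obstructed groups do not overlap control for either transcript.

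Stat5b, whose gene value moved little, showed a like pattern. Stat5b-202, which starts at base 100822528 of chromosome 11, held 70.2% ± 15.4 at day 7, 64.6% ± 15.1 at day 3 and 0.583% ± 0.366 in control, and rose by 2.66 ± 0.21 at day 7 and 2.67 ± 0.21 at day 3 (adjusted p = 3.47e-06 and 5.77e-06). Stat5b-201, which starts at base 100850724, had 1.28, 2.55, 4.06 and 1.73 FPKM at day 7, 2.35, 2.93, 2.06 and 5.28 at day 3, and 5.35, 7.67 and 6.52 in control, a change of -1.20 ± 0.31 at day 7 and -0.90 ± 0.31 at day 3. Every obstructed library lay below every control library in Stat5b-201, and both transcripts have the same coding exons. In Isg20, an interferon-induced RNA exonuclease gene, Isg20-201 held 92.4% ± 2.81 at day 7, 89.2% ± 5.48 at day 3 and 37.3% ± 12.6 in control, and rose by 1.67 ± 0.21 at day 7 and 1.10 ± 0.21 at day 3. The rest was Isg20-203, whose coding exons are the same and which changed by -1.11 ± 0.23 at day 7 and -1.12 ± 0.23 at day 3.

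In Ifnar2 the transcripts differ in coding length. Ifnar2-201, with 1539 coding bases, held 49.5% ± 6.93 at day 7, 52.6% ± 2.75 at day 3 and 29.5% ± 8.24 in control. Ifnar2-203, with 744 coding bases, held 40.3% ± 7.87 at day 7, 36.1% ± 1.32 at day 3 and 57.5% ± 6.81 in control. Both rose, Ifnar2-201 by 1.92 ± 0.17 at day 7 and 2.14 ± 0.17 at day 3 and Ifnar2-203 by 0.74 ± 0.21 at day 7 and 0.74 ± 0.21 at day 3. A soluble form of the chain made from a shorter transcript is known in the mouse. Transcript values are estimates that divide shared reads, and which reads told the transcripts apart was not tested.

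**Figure D5:**
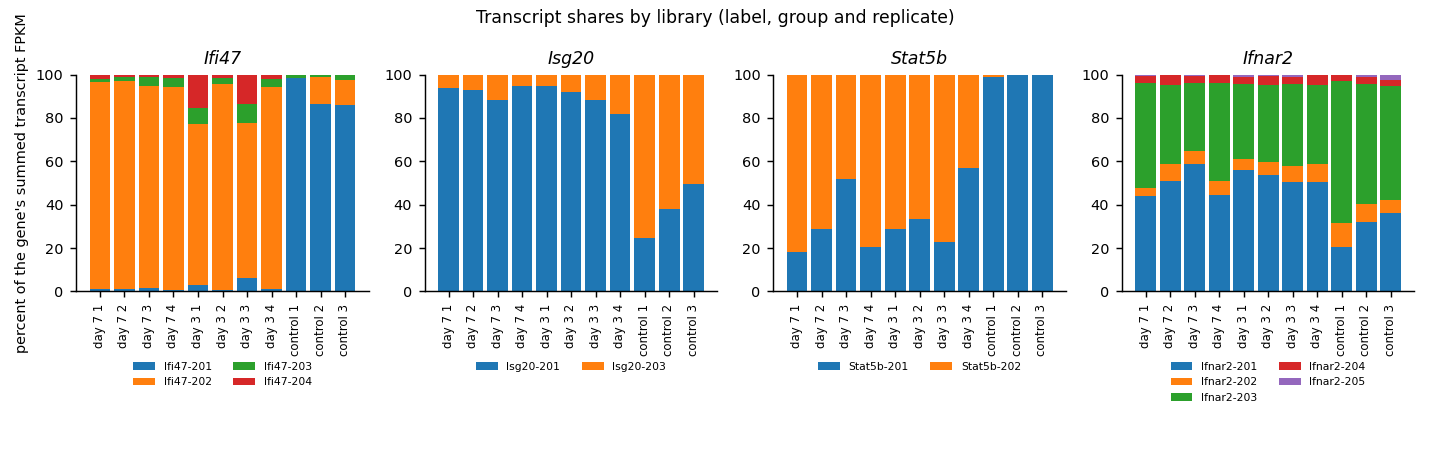
Each bar is a library and shows the percent of a gene's summed transcript FPKM held by each of its transcripts. Ifi47-202, Stat5b-202 and Isg20-201 hold larger shares in every obstructed library than in any control library. Ifnar2-203 holds 52.3% or more in control and 48.2% or less after obstruction.

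Listed genes of the pathway outside the symbol rule were mostly higher too. The lists of this and the next paragraph were chosen with earlier results of these data known, so they are no independent support. Over all genes tested, 46.3% were called higher at day 7 and 44.4% at day 3. Mndal, which overlaps Ifi203 and Ifi211, is among the further interferon-stimulated genes. Of 61 further interferon-stimulated genes, 57 were higher, 1 lower and 3 not passed at day 7 (median change 1.36), and 54 were higher, 1 lower and 6 not passed at day 3 (median change 1.49). Slfn2, a quiescence factor of immune cells, averaged 123 ± 28.7 FPKM at day 7, 182 ± 36.7 at day 3 and 20.1 ± 3.56 in control, a change of 2.54 ± 0.20 at day 7 and 3.10 ± 0.20 at day 3. Epsti1 averaged 26.4 ± 3.4 FPKM at day 7, 26.2 ± 7.15 at day 3 and 3.04 ± 0.327 in control, a change of 2.76 ± 0.18 at day 7 and 2.72 ± 0.18 at day 3. Samd9l was the gene that fell, with changes of -0.71 ± 0.25 at day 7 and -0.80 ± 0.25 at day 3. Among 28 genes of nucleic acid sensing and interferon induction, 23 were higher, 1 lower and 4 not passed at day 7 (median 1.23), and 25 were higher, 1 lower and 2 not passed at day 3 (median 1.16). Unc93b1, the chaperone of endosomal Toll-like receptors, rose by 3.08 ± 0.17 at day 7 and 3.04 ± 0.17 at day 3. Tmem173, which encodes STING, averaged 34.5 ± 1.35 FPKM at day 7, 38.3 ± 1.72 at day 3 and 4.54 ± 0.843 in control, a change of 2.69 ± 0.11 at day 7 and 2.84 ± 0.11 at day 3. Mavs, the adaptor of RIG-I and MDA5, was the gene that fell, with changes of -0.91 ± 0.16 at day 7 and -0.52 ± 0.16 at day 3.

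Of 21 Janus kinases, cytokine receptor chains and brakes of STAT signalling, 16 were higher, 0 lower and 5 not passed at day 7 (median 0.91), and 18 were higher, 0 lower and 3 not passed at day 3 (median 0.81). Socs1, the suppressor that blocks Janus kinases, had 14.7, 14.7, 11.5 and 15.6 FPKM at day 7, 10.2, 11, 12.3 and 13.7 at day 3, and 1.25, 1.14 and 1.78 in control. Control lay far below both days, with a change of 2.67 ± 0.14 at day 7 and 2.42 ± 0.14 at day 3 (adjusted p = 2.36e-08 and 6.89e-08). Il10ra, the binding chain of the interleukin-10 receptor, averaged 16.8 ± 0.348 FPKM at day 7, 24.3 ± 5.76 at day 3 and 6.1 ± 1.14 in control, and was lower at day 7 than at day 3 (-0.48 ± 0.15, adjusted p = 0.0477). Ptpn1, a phosphatase that acts on Janus kinases, averaged 23.8 ± 2.96 FPKM at day 7, 32.4 ± 3.96 at day 3 and 11.3 ± 0.806 in control, and was lower at day 7 than at day 3 (-0.43 ± 0.12, adjusted p = 0.0304). Over all genes the medians were 0.28 at day 7 and 0.26 at day 3, and the shares called 69.8% and 65.3% (46.3% and 44.4% higher).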

How the data were processed

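Gene and transcript tables of FPKM values for 11 libraries were used as the authors deposited them. Per the labels' protocols, total RNA extracted with Trizol went into stranded libraries that were sequenced on a NovaSeq. Tools listed per the submitters' processing notes are StringTie, HISAT2 and cutadapt, with GRCm38 as the build. The annotation release and settings were not given in the sources used here. Of the 83 members, 83 were found in GENCODE M21, 80 with the same start and end. FPKM values were not turned back into reads: over 55 library pairs, at most 11.8% of the genes under 0.2 FPKM stood at 1 common ratio. Depth per library is therefore unknown. No column of an unmapped sample was present.

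Values were analysed as log2(FPKM + 1) in limma 3.58.1 under R 4.3.3, whose moderated test took a mean-variance trend. Genes averaging 0.5 FPKM or more across all 11 libraries entered 1 model with 3 groups, which share an estimate of the spread, and p-values were adjusted by the Benjamini-Hochberg method over all 13428 genes. The fit was tested on simulated data. Named with values are the receptors, IRFs and STATs, the 10 largest called changes per comparison among members that reach 5 FPKM in a group mean, every called fall, and the most abundant member of each family; other genes named were chosen after their values were seen. The values of 2 members are not reported here, though both stay in the counts and the fit. The members and lists were chosen with earlier results of these data known. The 22 alternatives changed the pseudocount (0.1 and 0.5), the minimum mean (none and 2 FPKM), the scaling (median centring, quantile normalization, TPM with and without the mitochondrial genome), the trend, the samples fitted and a replicate block, or left out 1 library. Shared sequence was measured as 75-base windows of GENCODE M21 transcripts that occur in another gene.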

Additional observations from a re-analysis of the deposited data

Results flagged for a closer look

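Among the 72 groups of 4 libraries looked at, from 36 named members at day 7 and at day 3, 2 held a library that stood far from the rest, where chance gives about 1 group in 20. Irf5 was at 13.2 FPKM in day 7 replicate 1, against 19.6 to 20.9 in the other day 7 libraries. Stat6 was at 21.8 FPKM in the same library, against 24.8 to 25.3 in the others. This library was also the lowest of day 7 in 6 of 9 IRFs, Irf5 itself among them. Over all 83 members it was the lowest in 31, against 32 for replicate 2 of day 7. The flagged groups are no more than chance gives at that rate.

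The effect of obstruction differed between day 7 and day 3 in 8 members, of which 7 are given, by the test of the difference itself in limma. These 8 are 9.88% of the tested members, where 15.7% of all genes were called. Of the 7 given, only Ifi205 and Irgm1 kept the call in all 22 alternatives. On the log2 scale, day 7 was higher than day 3 by 0.75 in Ifi205, 0.69 in Ifitm6 and 0.48 in Irf7. The day 7 minus day 3 difference was -0.68 in Irgm1, -0.62 in Ifit3b, -0.51 in Stat5a and -0.48 in Cmpk2. In Ifitm6 and Stat5a the libraries of both days overlap.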

How the results depend on the processing

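Of the members called higher, 57 of 69 at day 7 and 58 of 70 at day 3 kept the call under every alternative, as did 1 of 4 called lower at day 7 and 0 of 1 at day 3. The count of members called was 61 to 77 at day 7 and 61 to 77 at day 3 over alternatives that kept all libraries. With 1 library left out it was 67 to 73 at day 7, 65 to 72 at day 3, and 5 to 12 for day 7 compared with day 3. How many of all genes kept their calls was not counted. These counts therefore do not show whether the members were more stable than other genes.

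Some small changes turned direction. Rescaled to TPM, the change at day 7 was 0.10 in Irf3 and 0.01 in Ifit3, and at day 3 it was 0.00 in Irf3, 0.30 in Stat4, 0.41 in Ifit3 and 0.29 in Ifit3b. Of these, only the day 3 change of Ifit3 was called in limma, as higher (adjusted p = 0.0469). At day 7 the change of Stat4 was -0.13 under median centring and -0.16 under quantile normalization, and that of Stat5b was -0.02 under median centring. For day 7 compared with day 3, Stat6 was at 0.04 under quantile normalization, 0.02 rescaled to TPM and 0.01 in TPM without the mitochondrial genome. With 1 library left out, the day 3 change ranged from -0.12 to 0.11 in Stat4 and from -0.09 to 0.10 in Ifit3. The day 7 minus day 3 difference then ranged from -0.03 to 0.08 in Irf3, -0.06 to 0.02 in Stat6, -0.18 to 0.14 in Mx1, -0.04 to 0.13 in Bst2 and -0.06 to 0.12 in Zbp1. The cause was not tested.

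Whether the replicate numbers pair the libraries was not settled. Deviations from the group means in same-numbered libraries correlated at -0.138 to 0.428 over 10 pairs, against -0.467 to 0.523 over 30 pairs of different number. With 3 or 4 libraries a group, these correlations depend on each other and cannot exclude a pairing. With a replicate block, 69 members were called at day 7, 70 at day 3 and 8 between the days. Under the block the day 3 change was 0.07 in Stat4 and 0.02 in Ifit3, and the day 7 calls of Irf3 (-0.34, adjusted p = 0.0522) and Ifit3 (-0.42, adjusted p = 0.0549) were lost, as were those of Ifit1 and Oas1c at day 7, Ifitm2 and Isg20 at day 3, and Irf7 between the days (0.48, adjusted p = 0.0534). Ifi44 at day 3 and Ifi213 between the days were called with the block and not without it. FPKM values carry no counts, so counting error cannot be given, and low members are least certain.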
